A study of Capra hircus with 13 samples.

Results

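The DNA replication machinery was taken as every gene name in the deposited tables that names an origin recognition complex, MCM, GINS, replication factor C (RFC), replication protein A (RPA), primase or replicative polymerase subunit, together with *CDC6*, *CDC7*, *CDC45*, *CDT1*, *GMNN*, *PCNA*, *LIG1* and *FEN1*. The rule found 48 genes among 27193 names, and each was listed once in all 5 tables, which share 18138 names. The rule reads symbols and no measured value. *MCM3AP* matched the rule by its letters only, since it encodes a factor of mRNA export and not a helicase subunit. The libraries were goat (*Capra hircus*) polyA RNA read by Smart-seq2, 3 of untreated mature MII oocytes, 3 of untreated 4-cell and 3 of untreated 8-cell embryos after in vitro fertilization (IVF), 2 of 8-cell embryos given a negative control siRNA (NC) and 2 of 8-cell embryos given siRNA against *YTHDF2*. Both injected groups received their siRNA in the cytoplasm 8 h after IVF and were sequenced as pooled embryos. Breed and age of the donors are not given in the sources used here, and no engineered allele is named for any group. The authors took the untreated libraries from 2 earlier studies without naming the study of each library, so stage and study cannot be told apart.

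DNA replication starts where the origin recognition complex sits on DNA and, with CDC6 and CDT1, loads the MCM2-7 helicase ring, a step that geminin (GMNN) blocks by binding CDT1. The kinase CDC7 and the factors CDC45, GINS and MCM10 turn the loaded ring into a running helicase, primase and polymerase alpha lay down primers, polymerases epsilon and delta extend them, RFC loads the sliding clamp PCNA, RPA covers single-stranded DNA, and FEN1 and LIG1 join the lagging strand fragments. Cleaving embryos replicate at first on products that the oocyte stored, before their own genome takes over.

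Values are FPKM, which scale the fragments of a gene by its exon length and by the mapped fragments of the library, so levels of different genes are compared per length. The untreated libraries held 26853876 to 42495116 fragments, and the genes listed in all untreated tables took 64.9 to 66.3% of them in MII oocytes against 94.7 to 97.0% in embryos. A change of mRNA amount and a change of poly(A) tail cannot be told apart in polyA RNA, nor can fewer cells and less RNA per cell. Markers of the oocyte (9 of 10 listed genes in the tables) were found above 0 in every library, while the cumulus cell markers *FSHR* and *AMH* were at most 0.390 FPKM. The summed level of the 9 cumulus genes was 41.2 to 60.3 FPKM in MII, 51.5 to 65.2 in 4-cell and 84.3 to 127 in 8-cell libraries, mostly *STAR* and *HAS2*. Among them *TNFAIP6* had 1.25, 0.782 and 19.3 FPKM in MII, 6.14, 3.67 and 1.42 in 4-cell and 4.47, 19.5 and 19.8 in 8-cell libraries. *PTX3* had 2.35 FPKM in MII replicate 3 and at most 0.304 in the other untreated libraries. The part of the cumulus genes in the results below was not tested. The 8-cell replicate 1 stood apart, with correlations of 0.854 and 0.898 to the other two 8-cell libraries against 0.966 between those, and stage results that rest on it are given with and without it.

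The levels of subunits that work in 1 complex were far from equal. The mean FPKM of the most and least abundant subunit differed 45.6-fold in the origin recognition complex, 20.7-fold in the MCM2-7 ring and 143-fold in polymerase epsilon in MII oocytes. At the 8-cell stage these ratios were 44.9, 7.14 and 286, and without 8-cell replicate 1 they were 51.8, 73.3 and 374. The ratio of 7.14 in the ring thus rests on that library, in which *MCM2*, the least abundant subunit, was far above the other 8-cell libraries. *PCNA* was the most abundant replication mRNA at every stage, with 1123 ± 101 FPKM in MII oocytes, 1252 ± 266 in 4-cell and 1387 ± 414 in 8-cell embryos (SD, n = 3, as for all mean levels below, while log2 changes carry an SE). It made the clamp and its loader 41.8, 39.8 and 39.9% of the summed FPKM of all 48 genes at the 3 stages. The geminin gene *GMNN* followed at the 4-cell stage with 349.6 ± 43.4 FPKM, and in MII oocytes *ORC6* (238 ± 57.9 FPKM), *GMNN* (233 ± 28.9 FPKM) and *ORC5* (202 ± 12.1 FPKM) lay within their spread of each other.

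**Figure D1:**
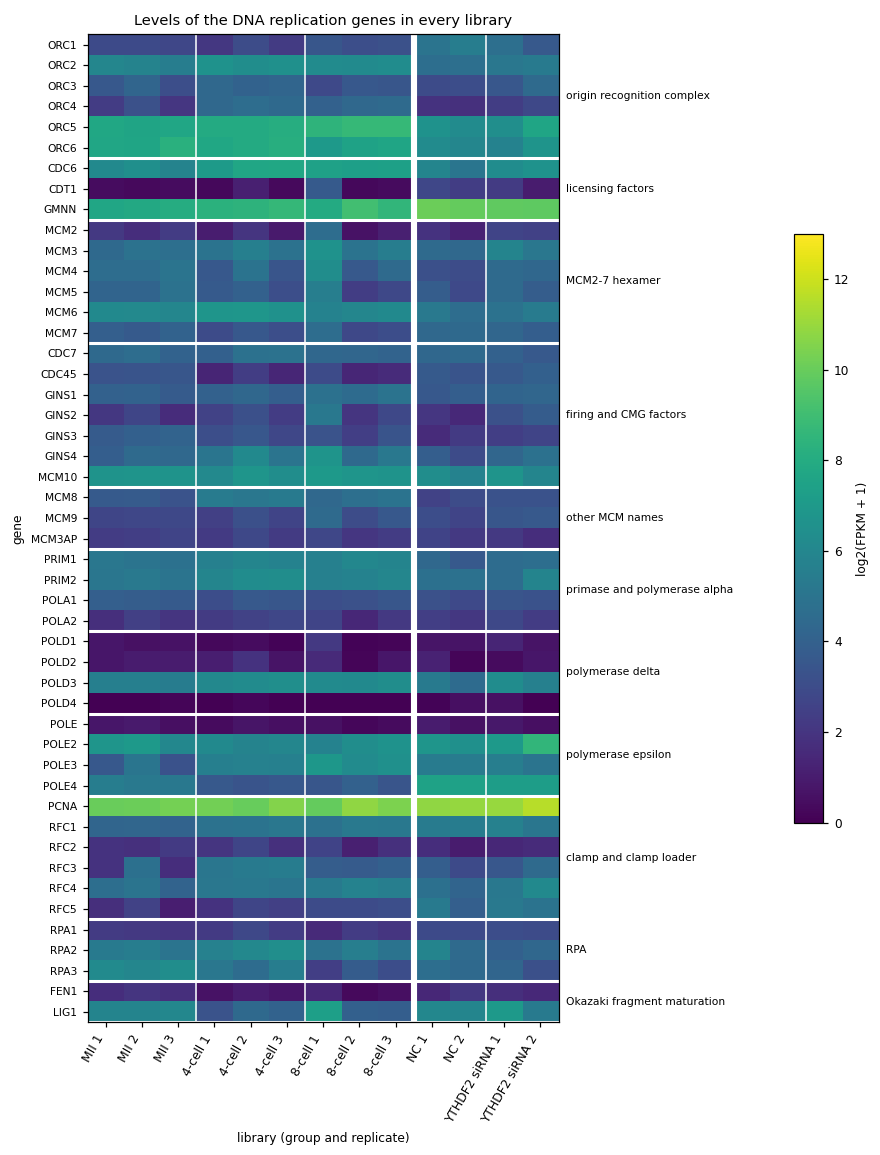
Heatmap of log2(FPKM + 1) for the 48 replication genes (rows, grouped by complex or role) in the 13 libraries (columns, by group and replicate; the thick white line separates the untreated from the injected libraries, which were normalized apart). *PCNA*, *GMNN*, *ORC5* and *ORC6* are bright in the untreated libraries, and *POLD4* and *POLE* are among the darkest rows.

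Several subunits of the fork polymerases, catalytic and accessory, stood at the other end. *POLE*, the catalytic subunit of polymerase epsilon, had 0.693 ± 0.215 FPKM in MII oocytes and 0.328 ± 0.161 in 8-cell embryos, while *POLE2*, its second subunit, had 98.8 ± 31.8 and 78.1 ± 23.3 FPKM. *POLD1*, the catalytic subunit of polymerase delta, had 0.584 ± 0.134 FPKM in MII oocytes, and its values at the 8-cell stage were 3.43, 0.104 and 0.123. The accessory subunit *POLD2* was as low, with 0.904 ± 0.161 FPKM in MII oocytes and 0.902 ± 0.898 in 8-cell embryos. Its 8-cell mean was 0.411 without 8-cell replicate 1. The accessory subunit *POLD3* had 45.9 ± 3.08 FPKM in MII oocytes and 75.3 ± 5.36 in 8-cell embryos. *POLD4*, the smallest subunit, was counted with 3 fragments in 1 MII library, 2 in 1 4-cell library and 0 in the other untreated libraries, which is at or under the floor of 3 fragments used here. *CDT1*, the loader that geminin blocks, had 18 to 30 fragments per MII library, or 0.308 ± 0.0538 FPKM, and *GMNN* stood 756-fold above it per length. *POLD1*, *POLD4* and *POLE* did not reach a mean of 1 FPKM and were not tested at the stages, which left 45 of the 48 genes.

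**Figure D2:**
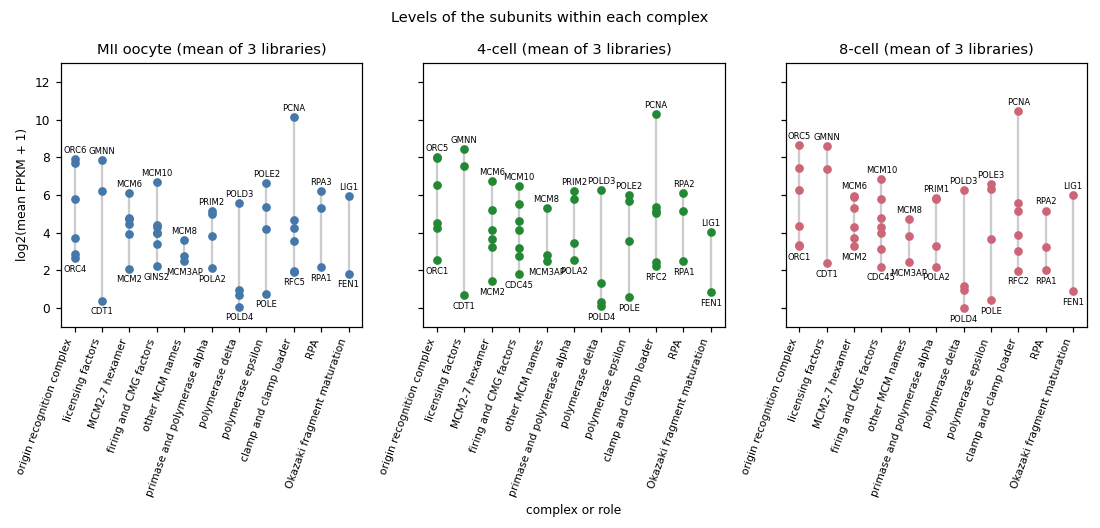
Mean log2 level, log2(mean FPKM + 1), of each subunit within its complex or role in MII oocytes, 4-cell and 8-cell embryos (3 libraries each), with the highest and lowest gene of each named. *PCNA* is the highest point and *POLD4* the lowest at all 3 stages, and *POLE* is the lowest subunit of polymerase epsilon at each.

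A gene was called when its change on log2(FPKM + 1) exceeded 2-fold with an unadjusted p under 0.05 in limma. These are the thresholds the study used with DESeq2, and the adjusted p given beside it covers all genes of the fit. From MII to the 4-cell stage 6 of 45 replication genes rose (13.3%, against 16.7% of all 9090 genes tested) and 4 fell (8.89%, against 6.06%). From MII to the 8-cell stage again 6 rose (13.3%, against 19.8% of all genes) and 4 fell (8.89%, against 8.14%). Between the 4- and 8-cell stages 1 fell (2.22%, against 4.28%) and 0 rose in limma (against 4.55%), with 5 higher at an unadjusted p under 0.05 at any fold (11.1%, against 10.8%) and 1 called by limma voom on fragments (2.22%, against 6.03%). The shares were thus near those of all genes. With an adjusted p under 0.05 at any fold, 12 genes were higher and 4 lower in 4-cell embryos than in MII oocytes (26.7 and 8.89%, against 24.7 and 6.42% of all genes), and 13 and 5 in 8-cell embryos (28.9 and 11.1%, against 27.3 and 10.0%). Every 4-cell library lay above every MII library for 17 genes (37.8%, as over all genes, 37.8%) and below for 9 (20.0%, against 14.1%), and every 8-cell library for 16 (35.6%, against 36.4%) and 7 (15.6%, against 13.7%). The median log2 change from MII to 4-cell embryos was 0.28, against 0.29 over all genes, and to 8-cell embryos 0.14, against 0.37. The latter pair was 0.04 and 0.26 without 8-cell replicate 1, 0.38 and 0.45 without replicate 2 and 0.26 and 0.41 without replicate 3. Without MII replicate 2 the pair was 0.23 and 0.43. Both comparisons use the same MII libraries.

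Those medians also depend on the scaling. When the shared genes were set to the same total in every library, the median over all genes moved to -0.14 in 4-cell and 0.02 in 8-cell embryos and that of the replication genes to -0.15 and -0.23. Then 4 of 45 replication genes were higher and 8 lower in 4-cell embryos (8.89 and 17.8%, against 6.74 and 12.9% of all genes in that fit), and 2 higher and 5 lower in 8-cell embryos (4.44 and 11.1%, against 11.6 and 13.3%). The calls that held under all 3 other scalings and on fragments were *ORC4*, *MCM8*, *POLE3* and *RFC3* higher and *CDC45*, *POLE4*, *RPA3* and *LIG1* lower in 4-cell embryos. For 8-cell embryos they were *ORC4* and *POLE3* higher and *CDC45*, *POLE4*, *RPA3* and *FEN1* lower. Rises under 2-fold are given below for *ORC2*, *ORC5*, *GINS1*, *PRIM1*, *RFC1* and *RFC4* with their adjusted p. These come from the main scaling alone, where the median over all genes was itself 0.29 in 4-cell and 0.37 in 8-cell embryos. Their size under the other scalings is not given.

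**Figure D3:**
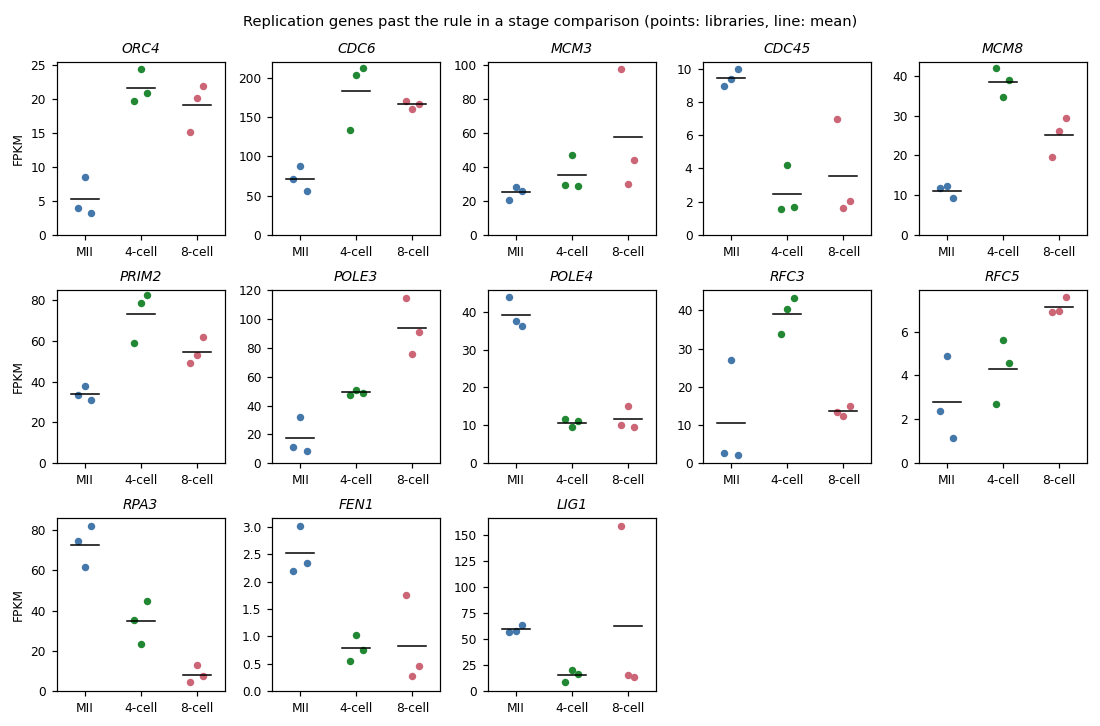
FPKM of the 13 replication genes past the rule in at least 1 stage comparison (points, 3 libraries per stage; line, mean; every axis starts at 0). *POLE3* rises and *POLE4* falls without overlap between MII oocytes and embryos, *RPA3* falls at each step, and a single 8-cell library is far above the others for *LIG1* and *MCM3*.

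In the origin recognition complex, *ORC4* rose. Its levels were 3.98, 8.50 and 3.20 FPKM in MII oocytes, 19.7, 24.4 and 20.9 in 4-cell and 15.2, 20.2 and 21.9 in 8-cell embryos. Every embryo library lay above every oocyte library, by log2 changes of 1.95 ± 0.30 (SE, adjusted p = 0.0016) and 1.77 ± 0.30 (adjusted p = 0.0019). *ORC5* had 214, 189.7 and 204 FPKM in MII oocytes and 348, 416 and 424 in 8-cell embryos, a log2 change of 0.96 ± 0.14 (adjusted p = 0.0009) that stayed just under 2-fold and passed it without 8-cell replicate 1 (1.05). *ORC2* was 1.69-fold as high at the 4-cell stage as in MII oocytes (adjusted p = 0.0076), also under the fold required. *ORC1*, *ORC3* and *ORC6* passed neither rule nor adjusted p from MII to either stage.

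Among the licensing factors *CDC6*, which completes the loading platform, had 71.4, 87.7 and 55.5 FPKM in MII oocytes, 133, 203 and 212 in 4-cell and 170.1, 160.3 and 167 in 8-cell embryos. The groups did not overlap, and the log2 changes were 1.33 ± 0.22 (adjusted p = 0.0022) and 1.23 ± 0.22 (adjusted p = 0.0025). With the shared genes at the same total both were 0.80, under the fold required. *GMNN* had 204 to 262 FPKM in MII oocytes and 317 to 399 in 4-cell embryos and was not called.

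In the MCM2-7 ring only *MCM3* was called, at the 8-cell stage. It had 20.7, 28.4 and 26.0 FPKM in MII oocytes against 98.1, 30.3 and 44.0 in 8-cell embryos, a log2 change of 1.01 ± 0.39 (adjusted p = 0.068). Without the highest library it was 0.54 (adjusted p = 0.14), no longer past the rule, and the call was also lost without MII replicate 1 or 3. *MCM6*, the subunit of the ring with the highest mean at each stage, had 67.0 ± 4.22, 106 ± 10.1 and 61.2 ± 8.29 FPKM at the 3 stages. Its 8-cell libraries lay under all 4-cell libraries, by 0.78 on the log2 scale (adjusted p = 0.021), which is under the fold required. *MCM8*, a paralogue that acts in DNA repair, rose from 11.1 ± 1.66 FPKM in MII oocytes to 38.6 ± 3.59 in 4-cell and 25.1 ± 4.97 in 8-cell embryos, by 1.72 ± 0.20 (adjusted p = 0.00045) and 1.10 ± 0.20 (adjusted p = 0.0026) on the log2 scale. The later value was under the fold required with every other scaling (0.71 to 0.75), and the call was lost without MII replicate 3 or 8-cell replicate 3 (lowest value 0.98). *MCM9*, its partner in repair, was called at neither stage.

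Of the firing factors *CDC45*, which joins MCM2-7 and GINS in the running helicase, fell. It had 8.95, 9.35 and 9.98 FPKM in MII oocytes, 1.55, 4.22 and 1.66 in 4-cell and 6.97, 1.63 and 2.07 in 8-cell embryos. All embryo libraries lay below all oocyte libraries, by log2 changes of -1.66 ± 0.43 (adjusted p = 0.017) and -1.38 ± 0.43 (adjusted p = 0.032), and the latter was -1.88 without 8-cell replicate 1. The 4 GINS subunits, *CDC7* and *MCM10* were not called. *GINS4* passed the fold but not the p required, with a log2 change of 1.15 ± 0.54 (adjusted p = 0.14) from MII to the 4-cell stage. To the 8-cell stage *GINS4* was at 1.21 ± 0.54 (adjusted p = 0.11) and *GINS2* at 1.20 ± 0.70 (adjusted p = 0.2), also without the p required. Without 8-cell replicate 1 these 8-cell values were 0.57 for *GINS4* and 0.28 for *GINS2*. *MCM10* held 101 ± 2.30, 86.2 ± 21.6 and 113 ± 14.7 FPKM at the 3 stages. *GINS1* was 1.81-fold as high in 8-cell embryos as in MII oocytes (adjusted p = 0.012) and *GINS3* 1.92-fold lower (adjusted p = 0.042), both under 2-fold.

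Of primase and its polymerase, *PRIM2* rose at the 4-cell stage. *PRIM2*, the large primase subunit, had 33.3, 37.8 and 31.2 FPKM in MII oocytes and 59.2, 78.5 and 82.5 in 4-cell embryos, a log2 change of 1.07 ± 0.18 (adjusted p = 0.0024) that was 0.54 to 0.78 under the other scalings and on fragments and 0.98 without 4-cell replicate 3. *PRIM1*, the catalytic primase subunit, was 1.74-fold and 1.82-fold as high at the 4- and 8-cell stages as in MII oocytes (adjusted p = 0.0076 and 0.0041), under the fold required. *POLA1* and *POLA2*, the polymerase alpha subunits, had 13.1 ± 1.06 and 3.28 ± 1.08 FPKM in MII oocytes and 8.84 ± 1.24 and 3.57 ± 1.83 in 8-cell embryos and were not called.

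Polymerase epsilon held a pair of opposite changes. *POLE3* and *POLE4* encode small histone-fold proteins that bind each other in the complex. *POLE3* had 11.1, 32.3 and 8.60 FPKM in MII oocytes, 47.4, 51.1 and 48.9 in 4-cell and 115, 75.7 and 91.4 in 8-cell embryos. *POLE4* had 44.0, 37.6 and 36.1 FPKM in MII oocytes, 11.6, 9.40 and 11.0 in 4-cell and 10.0, 15.2 and 9.65 in 8-cell embryos. Embryo and oocyte libraries did not overlap for either gene, *POLE3* being higher and *POLE4* lower in every embryo library. The log2 changes of *POLE3* were 1.67 ± 0.40 (adjusted p = 0.012) and 2.58 ± 0.40 (adjusted p = 0.0011), and those of *POLE4* were -1.78 ± 0.21 (adjusted p = 0.00045) and -1.69 ± 0.21 (adjusted p = 0.00038). The mean of *POLE4* went from above that of *POLE3* in MII oocytes to below it at both later stages.

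Of the clamp loader, *RFC3* and *RFC5*, small subunits of the loader ring, were called. *RFC3* had 2.76, 26.9 and 2.20 FPKM in MII oocytes, 33.9, 40.4 and 43.3 in 4-cell and 13.5, 12.3 and 14.9 in 8-cell embryos. MII replicate 2 was 10.9-fold above the mean of the other oocyte libraries and lay between the 8-cell and the 4-cell values. The 4-cell libraries lay above all oocytes, by 2.53 ± 0.68 on the log2 scale (adjusted p = 0.02), and leaving out single libraries gave 1.97 to 3.53. To the 8-cell stage *RFC3* was at 1.07 (adjusted p = 0.25) and not called, and without MII replicate 2 it was called at 2.07 (adjusted p = 0.00036). *RFC5* had 2.39, 4.87 and 1.14 FPKM in MII oocytes and 6.90, 6.93 and 7.57 in 8-cell embryos, a log2 change of 1.22 ± 0.37 (adjusted p = 0.027) that was 0.90 to 0.94 under the other scalings and 0.87 without MII replicate 3. *RFC1*, the large subunit, and *RFC4* were 1.93- and 1.91-fold as high in 8-cell embryos as in MII oocytes (adjusted p = 0.0033 and 0.013), just under the fold required.

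In the single-strand binding complex *RPA3*, the small subunit, fell at each step. The levels were 74.4, 61.5 and 82.1 FPKM in MII oocytes, 35.2, 23.6 and 45.0 in 4-cell and 4.36, 12.9 and 7.41 in 8-cell embryos, with no overlap between any of the stages. The log2 changes from MII were -1.09 ± 0.35 (adjusted p = 0.041) and -3.10 ± 0.35 (adjusted p = 0.00023), and that from the 4- to the 8-cell stage was -2.01 ± 0.35 (adjusted p = 0.011). The 4-cell call was lost without MII replicate 3 or 4-cell replicate 2 (-1.29 to -0.84 over the 6 fits). *RPA3* was the only replication gene called between the 4- and 8-cell stages. *RPA2*, the middle subunit, had 38.5 ± 6.67, 67.0 ± 16.5 and 34.8 ± 9.48 FPKM at the 3 stages, and *RPA1*, the large subunit, 3.46 ± 0.293, 4.50 ± 1.31 and 2.98 ± 0.979. Neither was called, and the most abundant of the 3 mRNAs was *RPA3* in MII oocytes and *RPA2* at both later stages.

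The genes that finish the lagging strand were lower in most embryo libraries. *LIG1*, the ligase, had 56.9, 57.9 and 63.8 FPKM in MII oocytes, 8.89, 20.4 and 16.0 in 4-cell and 159, 15.1 and 14.0 in 8-cell embryos. The 4-cell value was -1.98 ± 0.78 on the log2 scale (adjusted p = 0.08) in a fit that shares its spread with the 8-cell libraries. Leaving out any 1 of 5 of the 6 MII and 4-cell libraries ended the call, with values of -2.22 to -1.66 over the 6 fits. Without 8-cell replicate 1, which is in neither group, the call held at -1.98. *FEN1*, the flap nuclease, had 2.20, 3.02 and 2.33 FPKM in MII oocytes against 1.76, 0.269 and 0.454 in 8-cell embryos, from 15 to 97 fragments each, and fell by 1.02 ± 0.32 on the log2 scale (adjusted p = 0.03). The change of so low a gene depends on the pseudocount, being -1.84 with a pseudocount of 0.1. It was -2.58 in limma voom on fragments, which also scales the libraries in another way. The call was lost without MII replicate 2, 8-cell replicate 2 or 8-cell replicate 3, with values of -1.36 to -0.80.

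The 8-cell replicate 1 was over 2-fold above the next 8-cell library, on FPKM + 1, for 10 of the 45 genes (22.2%, against 16.2% of all tested genes). They were *MCM2*, *MCM3*, *MCM4*, *MCM5* and *MCM7* of the ring, *GINS2*, *GINS4* and *CDC45* of the running helicase, *CDT1* and *LIG1*. *MCM2* had 23.9 FPKM there against 0.574 and 1.21 in replicates 2 and 3, and *CDT1* had 12.0 against 0.193 and 0.302. *MCM6* and *GINS1* did not share this, with 53.3 against 60.6 and 69.8 FPKM and 28.2 against 22.4 and 29.4. The summed level of the ring was 327 FPKM in replicate 1 and 113 and 150.2 in the others.

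**Figure D4:**
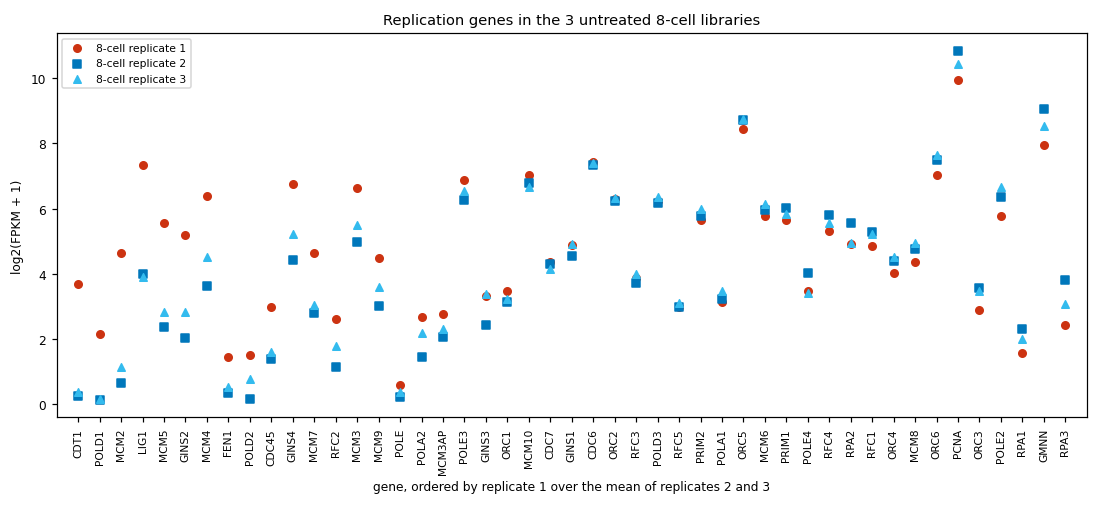
Level, log2(FPKM + 1), of the replication genes in the 3 untreated 8-cell libraries, ordered by replicate 1 over the mean of replicates 2 and 3 (*POLD4*, at 0 in all 3, is left out). On the left *CDT1*, *MCM2*, *LIG1* and *MCM5* are far higher in replicate 1, and on the right *RPA3*, *GMNN* and *RPA1* are lower in it.

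In a fit without replicate 1, where *CDT1* and *POLD2* no longer reached the filter, 8 of 43 replication genes were lower at the 8-cell stage than in MII oocytes in place of 4 (18.6%, against 10.8% of all genes in that fit), and 8 were higher (18.6%, against 20.0%). The added ones were *LIG1* at -1.96 (adjusted p = 0.00096), *MCM5* at -1.81 (adjusted p = 0.0024), *MCM2* at -1.16 and *GINS3* at -1.05 (both adjusted p = 0.03). *ORC5* at 1.05, *RFC4* at 1.06 and *RFC1* at 1.03 joined the genes that were higher, and *MCM3* left them. From the 4- to the 8-cell stage *MCM5* was then lower as well, at -1.01 (adjusted p = 0.1), which made 2 lower genes (4.65%, against 4.12%).

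For the knockdown the study injected a mixture of siRNAs against *YTHDF2*, which encodes a reader of N6-methyladenosine in RNA. Their antisense strands, shown because they define the treatment, are printed 5′ to 3′ with the seed, bases 2 to 8, in capitals.
s28148: uUGCUAGCaauaucagcccaa
s28147: uGGUCUAUaguauucaugcca
*YTHDF2* had 112 and 159 FPKM in the NC libraries and 8.07 and 4.47 in the *YTHDF2* siRNA libraries, a log2 change of -4.25 ± 0.43 (adjusted p = 0.00037).

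Of 44 replication genes tested in the injected embryos (*POLD1*, *POLD2*, *POLD4* and *POLE* did not reach the filter), 8 were higher after *YTHDF2* siRNA (18.2%, against 9.48% of all 11004 genes) and 2 were lower (4.55%, against 15.3%). With an adjusted p under 0.05 the counts were 1 and 0 (against 2.06 and 5.92% of all genes). The median log2 change was 0.42, against 0.01 over all genes, and 32 of 44 changes were above 0 (72.7%, against 50.2%). Both *YTHDF2* siRNA libraries lay above both NC libraries for 20 genes (45.5%, against 30.3%) and below them for 9 (20.5%, against 30.7%). With 2 libraries per group and no statement on separate collections, p measures only the spread between these libraries. A fit that leaves out a library here has an arm of 1 library, takes the spread of each gene, before limma moderates it over all genes, from the other group alone and assumes that the lone library varies alike, as holds for all such knockdown fits below. Without NC replicate 2 such a fit called 2 of the higher genes, *GINS2* and *MCM4* (4.55%, against 4.95% of all genes in that fit), with a median of 0.17 against -0.06 over all genes.

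**Figure D5:**
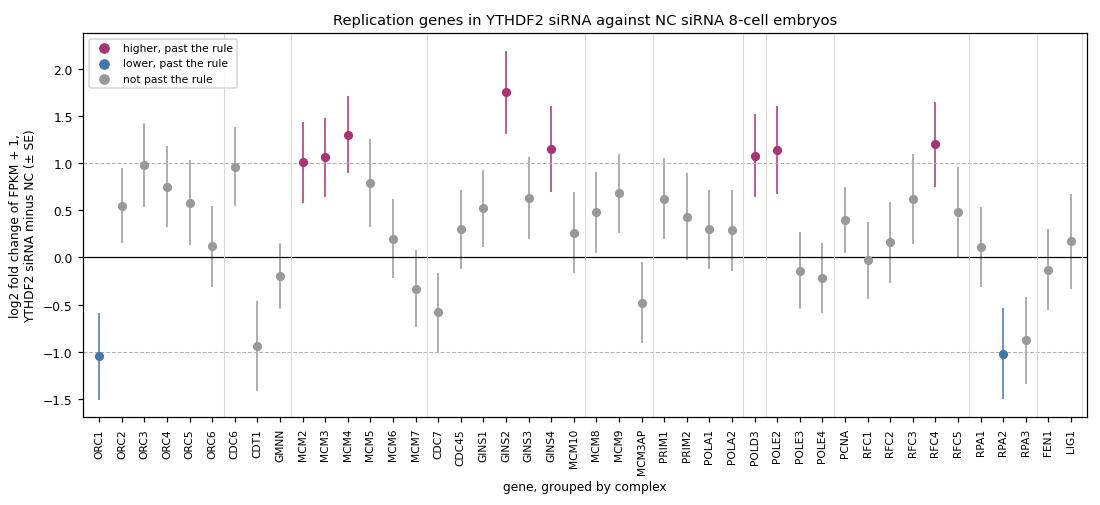
Log2 fold change of FPKM + 1 (YTHDF2 siRNA minus NC, 2 libraries each; bars, SE of limma) of the 44 tested replication genes grouped by complex, with 0 as a solid and 2-fold as dashed lines. The 8 genes called higher lie in the MCM2-7 ring, GINS, *POLD3*, *POLE2* and *RFC4*, and the 2 called lower are *ORC1* and *RPA2*.

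*GINS2* had 3.11 and 1.79 FPKM with NC and 8.50 and 12.6 with *YTHDF2* siRNA, a log2 change of 1.75 ± 0.44 (adjusted p = 0.03), and leaving out single libraries gave 1.47 to 2.03. *GINS4* had 13.9 and 6.71 against 18.9 and 27.6 FPKM (1.15 ± 0.46, adjusted p = 0.12). Both *YTHDF2* siRNA libraries lay above both NC libraries for each gene, and *GINS4* was called in 2 of 4 fits that left out a library.

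Of the ring, *MCM4* had 7.96 and 7.21 FPKM with NC and 21.2 and 19.2 with *YTHDF2* siRNA (1.30 ± 0.41, adjusted p = 0.064). *MCM3* had 21.2 and 20.3 against 57.3 and 34.4 FPKM (1.06 ± 0.42, adjusted p = 0.12), and *MCM2* 2.70 and 1.37 against 5.33 and 4.63 (1.01 ± 0.43, adjusted p = 0.14), and the call of *MCM2* was lost with no filter on low values. The remaining subunits were not called, with *MCM5* at 0.79, *MCM6* at 0.20 and *MCM7* at -0.33 on the log2 scale. *MCM4* passed the rule whichever library was left out, while *MCM2* and *MCM3* passed it in 1 of 4 such fits. *CDC45*, which binds the ring, had 11.7 and 9.36 against 11.5 and 14.9 FPKM.

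Outside the helicase, *POLD3* had 38.5 and 22.2 FPKM with NC and 78.8 and 50.1 with *YTHDF2* siRNA (1.08 ± 0.44, adjusted p = 0.12). *RFC4* had 26.8 and 17.2 against 35.4 and 72.1 FPKM (1.20 ± 0.45, adjusted p = 0.11). *POLE2* had 108 and 89.6 against 129 and 369 FPKM (1.14 ± 0.47, adjusted p = 0.13). The last 2 were far higher in *YTHDF2* siRNA replicate 2 than in replicate 1, and without replicate 2 neither was called. *POLD3* and *RFC4* were called in 2 and *POLE2* in 1 of the 4 fits that left out a library, and the call of *POLE2* was also lost with no filter and with median-ratio rescaling. *PCNA* had 1842 and 1982 FPKM against 2049 and 3109.6, *GMNN* 1077 and 983 against 917 and 871, and neither was called.

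The lower calls were *ORC1*, the ATP-binding large subunit of the origin complex, and *RPA2*. *ORC1* had 31.2 and 45.1 FPKM with NC and 26.3 and 11.6 with *YTHDF2* siRNA (-1.05 ± 0.46, adjusted p = 0.15). *RPA2* had 56.6 and 21.9 against 14.9 and 19.1 FPKM (-1.02 ± 0.48, adjusted p = 0.17), with the NC libraries 2.58-fold apart. Each was called in 2 of 4 fits that left out a library, and without NC replicate 1 the change of *RPA2* was -0.36. The call of *RPA2* was also lost with a pseudocount of 0.1, with no filter, under all 3 other scalings and with the replicate block, and that of *ORC1* with no filter, with quantile normalization and with the block. The other origin subunits were at 0.12 to 0.98 on the log2 scale.

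Other genes moved between these groups. The summed level of the 9 oocyte markers was 765 and 488 FPKM in the NC and 992 and 1927 in the *YTHDF2* siRNA libraries, with no marker at 0, and that of the 9 cumulus genes was 36.8 and 35.2 against 68.8 and 66.8, with *FSHR* at 0 in all 4. The 4 sperm genes summed to 12.8 and 12.2 against 25.2 and 3.54 FPKM, mostly *TNP2*, and the 2 blood and immune genes to 3.77 and 4.32 against 1.25 and 0.950. The 4 activation genes *LEUTX*, *ARGFX*, *DUXA* and *KLF17* summed to 3153 and 3905 against 3479.8 and 3123 FPKM. Their part in the knockdown result was not tested.

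Untreated and NC-injected 8-cell embryos were normalized apart, so their levels are set side by side with no test. Of 44 replication genes that reached the filter in both sets, both NC libraries lay above all 3 untreated 8-cell libraries for 9 (20.5%, against 29.4% of all 8348 such genes) and below them for 18 (40.9%, against 37.4%). *YTHDF2* itself had 10.8, 16.7 and 12.5 FPKM in the untreated 8-cell libraries, beside 112 and 159 with NC and 8.07 and 4.47 with *YTHDF2* siRNA. Because the sets were normalized apart, these values do not place the level after *YTHDF2* siRNA against that of untreated embryos. *POLE4* had a mean of 177 FPKM with NC against 11.6 in untreated 8-cell embryos, *ORC1* 38.2 against 8.82, and *RFC5* 26.5 against 7.13. *ORC4* had 2.58 against 19.1, *ORC5* 87.9 against 396, and *MCM4* 7.58 against 38.4, or against 16.6 without 8-cell replicate 1. No stage value was carried over to the knockdown.

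Genes that work beside the machinery were followed in 5 lists, whose counts stand beside shares over all genes of 19.8% higher and 8.14% lower from MII to 8-cell embryos and of 9.48 and 15.3% in the knockdown. Of 22 tested firing and fork accessory factors, 2 rose at the 4-cell stage and 0 fell (against 16.7 and 6.06% of all genes), among them *DSCC1*, a subunit of an alternative clamp loader, from a mean of 139 to 526 FPKM (log2 change 1.91, adjusted p = 0.00045). Between the 4- and 8-cell stages 0 rose and 2 fell (against 4.55 and 4.28%), *DSCC1* to 184 FPKM (-1.52, adjusted p = 0.0074) and *DNA2*, a nuclease and helicase, from 13.5 to 5.49 FPKM (-1.17, adjusted p = 0.01). At the 8-cell stage 1 of the 22 was higher than in MII oocytes, *TOP2B* (1.36, adjusted p = 0.00086). In the knockdown 2 fell, *RNASEH2B* (-1.57, adjusted p = 0.037) and *DBF4*, the activator of the CDC7 kinase (-1.38, adjusted p = 0.06), while *CDC7* itself had 19.1 and 21.1 FPKM with NC against 15.2 and 11.3 and was not called.

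Of 9 tested genes of dNTP supply, 1 rose and 2 fell at the 4-cell stage and 2 rose and 4 fell at the 8-cell stage against MII. *RRM2*, the small subunit of ribonucleotide reductase, had means of 5.55, 6.62 and 24.7 FPKM at the 3 stages, a log2 change of 1.78 between the 4- and 8-cell stages (adjusted p = 0.0086). *TYMS*, thymidylate synthase, and *DUT*, which removes dUTP, were lower than in MII oocytes at both stages, and the log2 changes to 8-cell embryos were -1.50 (adjusted p = 0.00069) for *TYMS* and -1.98 (adjusted p = 0.0024) for *DUT*. In the knockdown 2 of 10 rose, *DUT* (1.21, adjusted p = 0.069) and *RRM2B* (1.13, adjusted p = 0.1), and 2 fell, *DTYMK* (-1.71, adjusted p = 0.042) and *DCTPP1* (-1.34, adjusted p = 0.062).

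Of 18 tested S phase kinase and checkpoint genes, 4 rose and 0 fell at the 4-cell stage, and 4 rose and 1 fell at the 8-cell stage against MII, where 16.7 and 19.8% of all genes rose. *CCNE1*, a cyclin of S phase entry, had means of 3.09, 15.2 and 34.5 FPKM at the 3 stages, with log2 changes of 1.96 (adjusted p = 0.0013) and 3.06 (adjusted p = 0.0001) from MII. *WEE1*, a kinase that restrains CDKs, had means of 0.208, 2.74 and 8.61 FPKM (2.95 at the 8-cell stage, adjusted p = 9.3e-05). Both genes also rose between 4-cell and 8-cell embryos, where 2 of the 18 rose and 0 fell, by 1.10 for *CCNE1* (adjusted p = 0.048) and by 1.34 for *WEE1* (adjusted p = 0.021). *ATR*, the checkpoint kinase, was lower at the 8-cell stage (-1.40, adjusted p = 0.00099). In the knockdown 1 rose, *E2F8* (1.40, adjusted p = 0.062), and 1 fell, *E2F6* (-1.27, adjusted p = 0.086).

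None of the 4 replication-coupled chromatin assembly genes was called in any of the 4 comparisons in limma. Of 10 tested other DNA polymerase genes, 2 were lower in 4-cell and 3 in 8-cell embryos than in MII oocytes, *POLM* (-2.04 and -2.08, adjusted p = 0.02 and 0.015) and *MAD2L2* (-1.58 at both, adjusted p = 0.031 and 0.026) at both stages and *POLG2* (-1.28, adjusted p = 0.0014) at the latter. In the knockdown 1 rose, *POLI* (1.15, adjusted p = 0.1), and 1 fell, *POLQ* (-1.18, adjusted p = 0.1). Of 45 replication genes placed on a numbered chromosome in a later release of the assembly, 8 overlap another gene, among them *GINS2*, *ORC4*, *PRIM2*, *RFC4* and *RFC5*, and without strand their reads and those of the overlapping genes cannot be told apart.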

How the data were processed

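Per the labels and methods of the study, HISAT2 placed the reads on the ARS1 assembly, HTSeq counted those with a unique position, and DESeq2 called genes. The deposited tables hold FPKM made by the authors, per gene and library, and 0 columns of values were left unused. The FPKM steps of the untreated libraries gave whole fragments for 17918 of 17918 shared genes above 0 (tolerance 0.005 fragments). Injected libraries have values of 2 decimals, and their depth is unknown. Fragments come from amplified cDNA without molecular identifiers.

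The test was limma 3.58.1 (R 4.3.3; lmFit, eBayes with a mean-variance trend, two-sided) on log2(FPKM + 1). One fit held the untreated libraries, with a contrast per pair of stages, and a separate fit held the injected ones, each over genes whose mean reached 1 FPKM. Every p in the text is from limma, and adjusted p are Benjamini-Hochberg values over all genes of the fit. A log2 change on FPKM + 1 understates the change of low genes. The fits were tested on simulated data. Log2 changes are given for every replication gene past the rule and, beside the rule, for uncalled ones near it or in the same complex, chosen after their values were seen. At most 4 genes of each accompanying list are named per comparison. The genes and lists were chosen with earlier results of these data known. Alternatives changed the pseudocount, the filter, the scaling, the unit, the threshold, the replicate block and the libraries. The untreated replicates are not stated to be separate collections. Python 3.11.15, numpy 2.4.6, pandas 2.3.3 and matplotlib 3.10.9 were used for the rest. Gene symbols were checked against a RefSeq table of a later assembly, where all 48 matched. Its coordinates served only to count overlapping genes and are not printed.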

Additional observations from a re-analysis of the deposited data

How the results depend on the processing

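Of the 31 calls of replication genes, 20 had an adjusted p under 0.05, 15 held under that and every other alternative that keeps all libraries, and 13 held when single libraries were left out as well, with no direction reversed. These settings move the counts over all genes too, whose share called follows in brackets. From MII to the 4-cell stage, lower genes (4; 6.06%) were 8 with equal totals of the shared genes (12.9%), 7 with quantile normalization (10.2%) and 11 with voom on fragments (16.5%). From MII to the 8-cell stage, higher genes (6; 19.8%) were 2 with median-ratio rescaling (12.5%), equal totals (11.6%) or quantile normalization (12.1%) and 3 with voom (12.2%), and lower genes (4; 8.14%) were 9 with voom (17.7%). From the 4- to the 8-cell stage, higher genes (0; 4.55%) were 2 with equal totals (5.45%) and 1 with voom (6.03%). With a pseudocount of 0.1 there was 1 higher gene, against 545 of all 9090 genes. Lower genes (1; 4.28%) were 2 with a pseudocount of 0.1 (5.86%) and 3 with median-ratio rescaling (5.15%) or quantile normalization (4.93%). With voom there were 2 lower genes (5.37%). In the knockdown, lower genes (2; 15.3%) were 1 with a pseudocount of 0.1 (16.1%), median-ratio rescaling (14.9%) or equal totals (14.6%) and 0 with no filter (7.46%), quantile normalization (12.5%) or an adjusted p (5.92%), and higher genes (8; 9.48%) were 6 with no filter (4.44%) and 1 with an adjusted p (2.06%). Leaving out single libraries gave 3 to 9 higher and 3 to 8 lower genes from MII to the 8-cell stage (3 higher without MII replicate 3, 8 lower without 8-cell replicate 1), 0 to 3 higher and 1 to 3 lower from the 4- to the 8-cell stage, and 2 to 10 higher (2 without NC replicate 2) and 1 to 3 lower in the knockdown. Over all genes, the stage fits that left out a library called 18.0 to 22.6% higher and 7.20 to 10.8% lower from MII to the 8-cell stage. Between the 4- and 8-cell stages they called 3.11 to 8.97% higher and 3.86 to 5.25% lower. Against MII, the 4-cell stage had 5 to 7 higher and 3 to 5 lower replication genes. The shares over all genes were 14.6 to 19.2% and 4.86 to 7.18%. In the knockdown fits the median log2 change was 0.17 to 0.47, against -0.09 to 0.14 over all genes. Beyond the fewer libraries or the stricter rule itself, the cause of the changed counts was not tested.

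Whether replicate numbers pair the samples was not settled. Correlations of deviations from the group means were -0.508 to 0.201 between same-number libraries at the stages, and -0.371 to 0.510 between others. Deviations within a group sum to 0, which limits these values. In the knockdown, with 2 libraries per group, they mirror each other. The same-number value of -0.152 there is thus the value between other libraries with its sign reversed, and cannot show or exclude pairing. With the replicate block, 6 genes were higher and 4 lower from MII to the 4-cell stage (16.7 and 6.03% of all genes), as before. From MII to the 8-cell stage the counts also stayed at 6 and 4 (19.5 and 8.13%). Between the 4- and 8-cell stages they stayed at 0 and 1 (4.31% each). Those of the knockdown were 8 higher and 0 lower (9.21 and 15.2%). A crossed pairing of the 2 replicates, chosen after seeing the data, gave 8 and 2 (9.66 and 15.9%).

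With all shared genes set to the same total, the summed levels of the 48 genes were 9951 in MII, 8280.0 in 4-cell, 9664 in 8-cell, 6866 in NC and 8636 in *YTHDF2* siRNA libraries, in place of 2827, 3417, 3695, 4098 and 5045 FPKM. Depth limits *CDT1*, *POLD1* and *POLD4*, and in the injected libraries it is unknown.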
